A study of Mus musculus with 7 samples.

Results

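HOX genes encode homeodomain transcription factors that give cells along the head to tail axis of the embryo their positional identity. Every row of the deposited count table whose symbol was Hox, a cluster letter from a to d and a 1 or 2 digit number was taken, which gave 39 coding genes of 23955 gene names without the spike-in controls. There were 11 genes in cluster A, 10 in cluster B, 9 in cluster C and 9 in cluster D. They were followed across 7 mouse esophageal epithelial cell lines, 1 library each. The p53R172H mutant lines (mutant 1, 2 and 3) carried a missense allele of the tumour suppressor p53. The p53 -/- lines (null 1 and null 3) lacked p53, and 2 lines (WT 1 and WT 2) were wild type. All mutant and null lines also carried the treatment label 4NQO, the carcinogen 4-nitroquinoline 1-oxide, which the WT lines did not, so genotype and carcinogen cannot be told apart in any comparison with WT. All lines were of mixed strain background and were grown in KSFM, a serum-free keratinocyte medium, on plastic. The labels do not say whether lines came from separate animals, so every p-value measures the spread between these lines only.

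In each cluster the genes stand in the order of their numbers. Low-numbered (3′) genes are switched on first and reach furthest towards the head, they respond to retinoic acid, and high-numbered (5′) genes are known for the trunk, the limb and the hindgut. Polycomb complexes keep the clusters silent where they are not used, MLL complexes keep them active, and proteins of the PBC and MEIS families bind DNA together with HOX proteins. Adult fibroblasts, in culture too, are known to keep a record of their body site in the set of HOX genes that they express.

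Library totals ran from 41325469 to 47000225 counts in mutant lines, were 33598210 and 25469853 in null 1 and null 3, and 31283848 and 12751118 in WT 1 and WT 2. Trp53, which encodes p53, was at 172 to 254 CPM (counts scaled to a common library size, with TMM factors) in mutant lines, 8.73 and 4.71 CPM in null lines and 212 and 193 CPM in WT lines. All 13 epithelial markers were at 1 CPM or more in every library, with summed levels of 8891 to 12530 CPM in mutant, 8569 to 12842 CPM in null and 31588 to 43010 CPM in WT lines. The 20 fibroblast markers summed to 5264, 1639 and 3296 CPM in mutant 1, 2 and 3, to 811 and 4092 CPM in null 1 and null 3, and to 698 to 763 CPM in WT lines, where Col6a3, Lum, Pdgfrb and Dpt had no count. Lum also had no count in the null lines. Much of these sums came from 2 genes. Fn1 held 3486, 678 and 2263 CPM in mutant 1, 2 and 3, 311 and 2305 CPM in null lines, and 133 and 281 CPM in WT lines. Fbln2 held 624, 791 and 450 CPM in mutant lines, 465 and 982 CPM in null lines, and 597 and 372 CPM in WT lines. Muscle markers summed to 837, 646 and 172 CPM in mutant lines, 30.8 and 533 CPM in null lines and 166 to 306 CPM in WT lines. Acta2 alone held 768, 625 and 157 CPM in mutant lines, 28.3 and 350 CPM in null lines, and 151 and 279 CPM in WT lines. Myod1 (23.0 CPM), Myog (29.0), Des (26.0), Myh3 (4.02) and Tnnt1 (3.15) reached 1 CPM in null 3 alone. Acta2, Tagln, Myl9, Lmod1, Actg2 and Acta1 reached it in other lines too, and Myh11 and Cnn1 in none. Endothelial markers summed to at most 2.16 CPM in every library. Summed levels of the 10 immune markers were 49.1 to 92.0, 23.6 to 32.4 and 74.2 to 79.0 CPM in mutant, null and WT lines, and those of the 8 neural markers were 2.73 to 17.7, 5.66 to 13.9 and 13.4 to 19.0 CPM. In such bulk libraries, fewer cells that express a gene and less RNA per cell cannot be told apart.

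Together the 39 genes held 214, 184 and 250 CPM in mutant 1, 2 and 3, 212 and 131 CPM in null 1 and null 3, and 133 and 164 CPM in WT 1 and WT 2. Between 17 and 24 of them reached 1 CPM in a mutant library, 19 and 18 did so in null 1 and null 3, and 20 and 19 in WT 1 and WT 2. Each line thus expressed HOX genes of several clusters, and the number in use was similar across genotypes. Hoxb1, Hoxc11, Hoxc12, Hoxd1 and Hoxd12 had no count in any library. A further 7 genes stayed under 1 CPM everywhere, namely Hoxa11, Hoxa13, Hoxb5, Hoxb13, Hoxd3, Hoxd11 and Hoxd13. Of the 27 genes that reached 1 CPM in some library, 26 are given line by line.

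Levels can be compared between genes only per transcript length. On the scale of CPM per kilobase, Hoxc6 (17.4), Hoxc4 (10.8) and Hoxc8 (10.1) had the highest mean levels in mutant lines. Hoxb2 (8.75), Hoxc4 (7.24) and Hoxb4 (7.03) led in null lines, and Hoxc6 (9.96) and Hoxc8 (9.10) ranked first and second in WT lines. The order differed between single lines, as Hoxb9 was first in mutant 1 with 12.7 CPM per kilobase, ahead of Hoxc6 with 9.83.

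**Figure D1:**
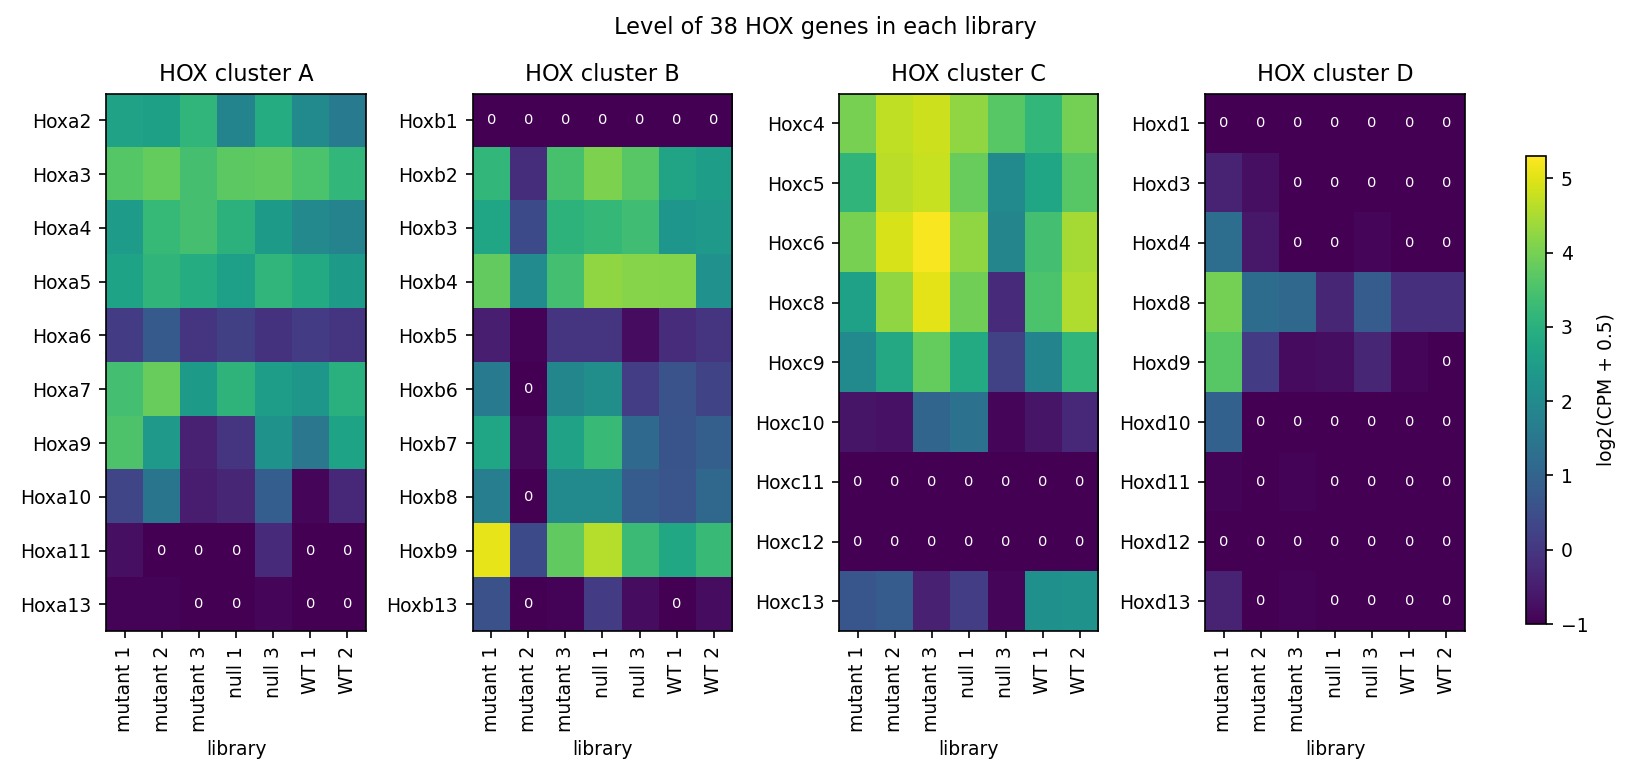
Level of 38 of the 39 HOX genes on the log2(CPM + 0.5) scale (colour) in each library (columns: mutant, null, WT), with 1 panel per cluster and genes in number order, 0 marking a gene with no count. The low column of mutant 2 in cluster B, the low column of null 3 in cluster C and the high column of mutant 1 in cluster D stand out.

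Cluster A was the most even of the clusters between lines. Its summed level was 59.8, 68.7 and 54.7 CPM in mutant 1, 2 and 3, 52.2 and 56.6 CPM in null 1 and null 3, and 52.0 and 51.4 CPM in WT 1 and WT 2. Clusters B, C and D each had 1 line that stood apart. Cluster B held 73.3, 5.74 and 54.6 CPM in mutant 1, 2 and 3, 84.7 and 52.6 CPM in null 1 and null 3, and 37.3 and 27.4 CPM in WT 1 and WT 2, so mutant 2 was far below all others. Cluster C held 49.7, 106 and 139 CPM in mutant lines, 75.2 and 19.8 CPM in null 1 and null 3, and 42.8 and 84.9 CPM in WT lines, with null 3 lowest. Cluster D held 31.4, 2.66 and 1.81 CPM in mutant 1, 2 and 3, 0.396 and 1.63 CPM in null lines, and 0.442 and 0.406 CPM in WT lines, with mutant 1 highest.

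As a share of all HOX counts, cluster B made up 3.13% in mutant 2 (exact 95% interval 2.75 to 3.54%), against 34.2% and 21.8% in mutant 1 and mutant 3. Cluster D made up 14.7% in mutant 1 (13.98 to 15.3%), against 1.45% and 0.724% in mutant 2 and mutant 3. Cluster C made up 15.2% in null 3 (13.98 to 16.4%), against 35.4% in null 1. These intervals cover counting error only. The 3 lines that stood apart did so in different clusters, and in each case another line of the same genotype did not share the pattern.

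**Figure D2:**
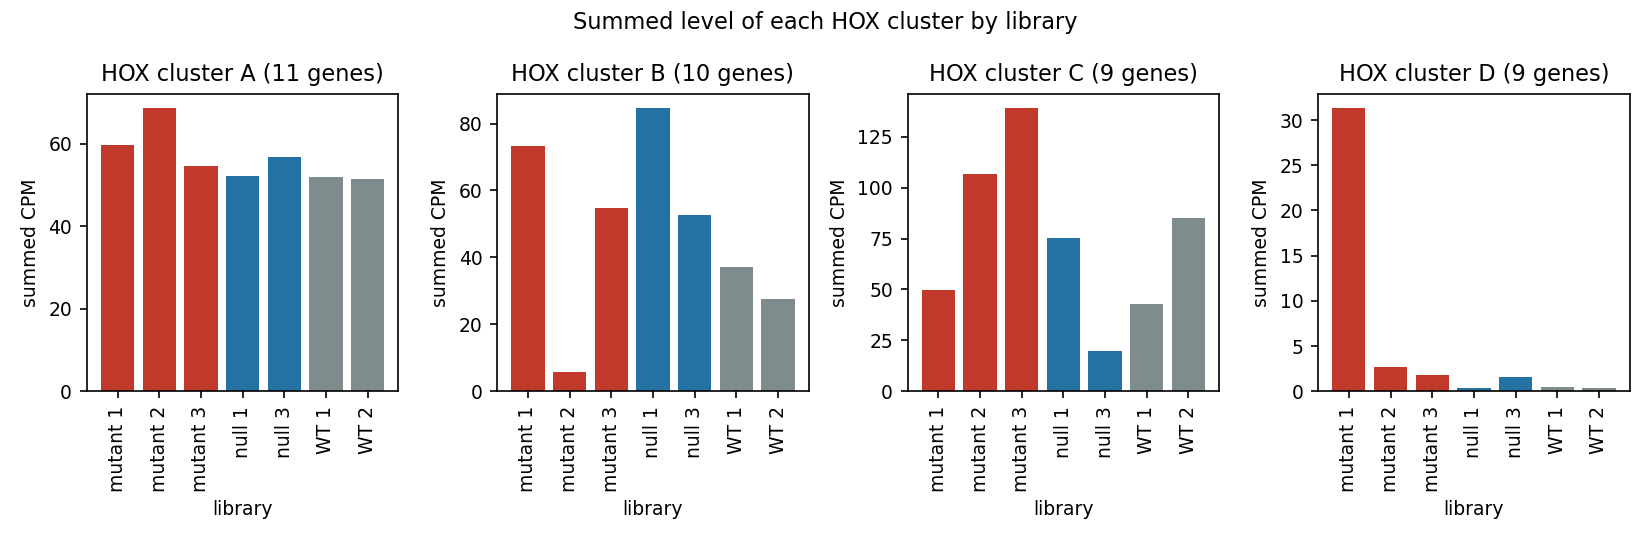
Summed CPM of the genes of each HOX cluster (bars, from 0) in each library, mutant lines in red, null lines in blue and WT lines in grey. Cluster A lies between 51.4 and 68.7 CPM throughout, whereas cluster B is at 5.74 CPM in mutant 2, cluster C at 19.8 CPM in null 3 and cluster D at 31.4 CPM in mutant 1.

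In mutant 2 most of cluster B was low, from its 3′ to its 5′ members. Of the 9 cluster B genes with any count, 8 had their single lowest level there, against a background of 11% of the 18567 genes with a count. For 6 of them (Hoxb2, Hoxb3, Hoxb6, Hoxb7, Hoxb8 and Hoxb9) every other line was at least 4-fold higher, against a background of 1.59%. This pattern and the corresponding ones in mutant 1 and null 3 were chosen after the values were seen, and no test was made of them. The 6 genes kept that margin with a count of 0 read as 3 counts (background 0.765%). No other line had more than 1 gene of a cluster apart from the rest by 4-fold in either direction.

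Hoxb2, a 3′ gene that is active in the hindbrain, was at 8.48, 0.380 and 10.5 CPM in mutant 1, 2 and 3, 16.3 and 12.2 CPM in null 1 and null 3, and 5.92 and 5.28 CPM in WT 1 and WT 2. Hoxb3, its neighbour, was at 6.0, 0.831 and 7.94 CPM in mutant lines, 8.67 and 9.91 CPM in null lines and 4.49 and 4.79 CPM in WT lines. For both genes the null lines were highest, all mutant lines lay below them, and mutant 2 was lowest. Hoxb4, known for its role in blood stem cell renewal, was at 13.4, 3.63 and 10.2 CPM in mutant lines, 18.7 and 17.4 CPM in null lines and 17.1 and 4.06 CPM in WT lines. Here WT 2 was nearly as low as mutant 2, and the WT lines spanned almost the whole range.

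The middle and 5′ genes of the cluster were at or near 0 in mutant 2. Hoxb6 was at 2.58, 0 and 3.19 CPM in mutant 1, 2 and 3, 3.80 and 0.607 CPM in null 1 and null 3, and 1.02 and 0.731 CPM in WT lines. Hoxb7 was at 6.14, 0.0475 and 5.69 CPM in mutant lines, 9.01 and 1.71 CPM in null lines, and 1.05 and 1.38 CPM in WT lines. Hoxb8, which marks the developing trunk and some blood precursors, was at 2.75, 0 and 3.51 CPM in mutant lines, 3.47 and 1.29 CPM in null lines, and 1.09 and 1.71 CPM in WT lines. For these 3 genes mutant 1, mutant 3 and null 1 formed the high lines and null 3 lay close to WT. A count of 0 in mutant 2 allows at most 0.0712 CPM, the worth of 3 counts there.

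Hoxb9, which acts in the thoracic region and the mammary gland, was at 32.7, 0.831 and 13.1 CPM in mutant 1, 2 and 3, 23.8 and 9.34 CPM in null 1 and null 3, and 6.26 and 8.93 CPM in WT 1 and WT 2. Apart from mutant 2, every mutant and null line lay above both WT lines. Hoxb5 stayed between 0.0237 CPM in mutant 2 and 0.487 CPM in WT 2. Hoxb13, a gene of the prostate and hindgut that lies apart from the rest of the cluster, reached 0.976 CPM in mutant 1, followed by null 1 with 0.578 CPM, and was at most 0.0812 CPM in the other lines.

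Of the genes near cluster B, Cbx1 did not share its low level in mutant 2. Cbx1, a heterochromatin protein, was at 46.9 CPM in mutant 2 and 34.0 to 45.3 CPM in the other 6 lines. Snx11, a sorting nexin, had its lowest level in mutant 2 by a small margin, 21.5 CPM against 24.2 to 36.4 CPM elsewhere. Skap1 and Ttll6, also near the cluster, stayed under 1 CPM in every line. The other clusters were not low in mutant 2, since cluster A was highest there and cluster C second highest. Mutant 2 had 41325469 counts in all, and its Hoxb2 and Hoxb9 levels rested on 16 and 35 counts.

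The RefSeq promoters of 2 genes of this cluster (250 bases before to 50 after the start, GRCm38.p6) are shown because one gene, Hoxb8, had no count in mutant 2 whereas the other, Hoxb4, kept 153. Capitals mark AGGTCA, the core of sites that bind retinoic acid receptors, read on either strand, so that TGACCT is the same motif on the opposite strand.
Hoxb8 promoter, chr11:96281655-96281954, plus strand: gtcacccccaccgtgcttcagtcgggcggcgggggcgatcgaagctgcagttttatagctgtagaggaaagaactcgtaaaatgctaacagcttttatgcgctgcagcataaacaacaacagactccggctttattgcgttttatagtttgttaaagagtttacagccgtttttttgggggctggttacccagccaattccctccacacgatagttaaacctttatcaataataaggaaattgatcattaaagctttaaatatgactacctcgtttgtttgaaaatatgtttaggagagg
Hoxb4 promoter, chr11:96318017-96318316, plus strand: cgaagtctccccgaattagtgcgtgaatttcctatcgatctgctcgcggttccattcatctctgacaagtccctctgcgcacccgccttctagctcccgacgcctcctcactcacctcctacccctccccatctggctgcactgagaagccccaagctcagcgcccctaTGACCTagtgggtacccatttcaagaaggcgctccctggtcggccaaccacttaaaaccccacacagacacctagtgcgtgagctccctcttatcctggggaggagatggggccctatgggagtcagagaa
The Hoxb4 window holds 1 copy and the Hoxb8 window none. Among 24 promoter windows of 22 HOX genes found in RefSeq, 7 (29.2%) hold the motif, against 16.3% of 32851 promoters of all genes. CpG dinucleotides numbered 13 and 14 in the Hoxb8 and Hoxb4 windows, with a median of 14.5 over HOX promoters and 7 over all promoters. Of the other motifs searched on both strands, CCAAT was in 62.5% of HOX and 37.4% of all promoters, GGGCGG in 41.7% and 35.7%, TATAAA in 16.7% and 13.6%, TGATNNAT, a HOX and PBC motif, in 16.7% and 8.85%, and TTTATNG, a motif of posterior HOX and CDX proteins, in 8.33% and 10.9%. A match is only a match of letters.

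The HOX clusters also carry the miR-196 genes, whose microRNA pairs with HOX messages. Both mature forms share the seed, bases 2 to 8, in capitals.
miR-196a-5p: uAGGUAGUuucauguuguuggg
miR-196b-5p: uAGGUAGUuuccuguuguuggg
The best match of miR-196a-5p in the 3′UTR of a HOX gene was in Hoxb8, a known target in mouse embryos, where all 22 of its bases pair, 21 as Watson-Crick pairs and 1 as a G:U pair inside the seed match, in capitals.
Hoxb8 site: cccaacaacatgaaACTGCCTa
The strict seed match ACTACCT was in the 3′UTR of 8 of 39 HOX genes (20.5%), against 6.07% of 20931 coding genes. These 8 were Hoxa4, Hoxa5, Hoxa7, Hoxa9, Hoxb1, Hoxb6, Hoxb7 and Hoxc8. The Mir196a-1 gene, in cluster B, was at 0.386, 0 and 0 CPM in mutant 1, 2 and 3, 0.274 and 0.190 CPM in null 1 and null 3, and 0.0340 and 0 CPM in WT lines. Poly(A) libraries read host transcripts and not mature microRNAs, so these values say nothing of the level of miR-196. Mir196a-2 and Mir196b had no count.

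Cluster D was almost silent except in mutant 1. Of its 7 genes with any count, 6 had their single highest level in mutant 1 (background 13.4%), and for 5 (Hoxd4, Hoxd8, Hoxd9, Hoxd10 and Hoxd13) mutant 1 was at least 4-fold above every other line (background 2.5%). With a count of 0 read as 3 counts, 4 of these 5 kept that margin and Hoxd13, with 13 counts in mutant 1, did not (background 0.517%). Hoxd8 was at 15.4, 1.83 and 1.70 CPM in mutant 1, 2 and 3, 0.304 and 1.29 CPM in null 1 and null 3, and 0.408 and 0.406 CPM in WT lines. Hoxd9, a gene of the trunk and limb, was at 12.1, 0.570 and 0.0688 CPM in mutant lines, 0.0913 and 0.304 CPM in null lines, and 0.0340 and 0 CPM in WT lines. Thus Hoxd8 had some counts in every line and was higher in each mutant line than in any null or WT line, whereas Hoxd9 was at its high level in mutant 1 alone.

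Hoxd10, a limb and lumbar gene, was at 1.44 CPM in mutant 1 and had no count elsewhere, which allows at most 0.0688 to 0.244 CPM in the other 6 libraries. Hoxd4 was at 1.93, 0.166 and 0 CPM in mutant lines, 0 and 0.0380 CPM in null lines, and 0 in both WT lines. Hoxd3 was at 0.264 and 0.0949 CPM in mutant 1 and mutant 2, and Hoxd13, a gene of the digits and the tail end, at 0.264 and 0.0229 CPM in mutant 1 and mutant 3. Neither had a count in the other lines. Hoxd11 had 1 count in mutant 1 and 1 in mutant 3.

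Genes near cluster D did not share its high level in mutant 1. Lnp was at 55.0 CPM in mutant 1, 45.0 to 57.6 CPM in the other mutant and null lines, and 33.3 and 22.8 CPM in WT lines. Mtx2 was at 48.9 CPM in mutant 1 and 39.3 to 55.8 CPM elsewhere, and the homeobox gene Evx2, at the 5′ end of the cluster, had no count. Mutant 1 also had the highest sum of fibroblast markers, 5264 CPM, of which Fn1 alone gave 3486 CPM. Null 3, second with 4092 CPM, of which Fn1 gave 2305 CPM, had 1.63 CPM of cluster D. Prrx1, a mesenchymal homeobox gene named after its values were seen, had 43.8 CPM in mutant 1, against 107 CPM in null 3. The part of fibroblast marker genes in the cluster D levels was not tested.

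The promoters of the 3 cluster D genes with the highest levels per transcript length in mutant 1 are shown because they share the high level of that line, on the same build with the same capitals.
Hoxd8 promoter, chr2:74704365-74704664, plus strand: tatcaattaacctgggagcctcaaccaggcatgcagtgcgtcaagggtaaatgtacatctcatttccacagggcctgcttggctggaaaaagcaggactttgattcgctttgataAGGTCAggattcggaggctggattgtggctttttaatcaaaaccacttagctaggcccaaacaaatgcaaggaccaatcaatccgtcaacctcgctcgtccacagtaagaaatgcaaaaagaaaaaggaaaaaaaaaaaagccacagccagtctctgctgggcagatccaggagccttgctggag
Hoxd9 promoter, chr2:74697513-74697812, plus strand: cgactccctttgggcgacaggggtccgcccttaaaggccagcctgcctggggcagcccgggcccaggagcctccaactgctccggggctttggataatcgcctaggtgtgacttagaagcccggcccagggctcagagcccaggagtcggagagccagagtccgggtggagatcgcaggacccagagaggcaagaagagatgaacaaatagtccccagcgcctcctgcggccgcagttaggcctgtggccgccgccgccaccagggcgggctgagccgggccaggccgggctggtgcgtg
Hoxd10 promoter, chr2:74691641-74691940, plus strand: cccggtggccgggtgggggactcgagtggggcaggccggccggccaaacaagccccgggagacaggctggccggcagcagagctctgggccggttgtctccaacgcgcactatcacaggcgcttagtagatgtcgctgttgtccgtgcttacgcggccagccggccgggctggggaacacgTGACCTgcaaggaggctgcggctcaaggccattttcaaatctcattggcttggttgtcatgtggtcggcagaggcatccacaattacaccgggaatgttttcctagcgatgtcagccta
The Hoxd8 and Hoxd10 windows hold 1 AGGTCA each and the Hoxd9 window none, so the motif is not shared by all 3 genes. The Hoxd8 window has 6 CpG dinucleotides, and the Hoxd9 and Hoxd10 windows have 20 and 22.

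Cluster C was low in null 3 except at Hoxc4, without a steady trend towards its 5′ side. As a ratio, the gap to the next lowest line was widest at Hoxc8 (0.342 against 5.55 CPM). The Hoxc10 and Hoxc13 levels of null 3 rest on 1 count each. Of 7 genes with a count, 6 had their single lowest level in null 3 (background 7.58%), and for 3 (Hoxc8, Hoxc9 and Hoxc13) every other line was at least 4-fold higher (background 0.49%, and 0.0646% with a count of 0 read as 3 counts, where all 3 genes remained). Hoxc4 was at 15.7, 25.4 and 27.6 CPM in mutant 1, 2 and 3, 18.6 and 12.1 CPM in null 1 and null 3, and 8.54 and 15.4 CPM in WT lines. Hoxc5 was at 8.16, 24.6 and 26.8 CPM in mutant lines, 13.8 and 3.45 CPM in null lines, and 6.06 and 12.2 CPM in WT lines. Mutant 2 and mutant 3 were the highest lines for both, and for Hoxc4 alone all mutant lines lay above both WT lines.

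Hoxc6, a gene of the thoracic region, was at 15.5, 29.9 and 37.1 CPM in mutant lines, 18.7 and 3.15 CPM in null 1 and null 3, and 10.1 and 21.4 CPM in WT lines. Hoxc8, also thoracic, was at 5.55, 18.7 and 32.3 CPM in mutant lines, 14.7 and 0.342 CPM in null lines, and 10.9 and 23.1 CPM in WT lines. Hoxc9 was at 3.46, 6.48 and 13.6 CPM in mutant lines, 6.73 and 0.683 CPM in null lines, and 3.10 and 8.36 CPM in WT lines. In all 3, mutant 3 was highest, null 3 lowest, and WT 2 was above WT 1. Hoxc10 was at 0.142, 0.119 and 1.56 CPM in mutant lines, 2.04 and 0.0380 CPM in null 1 and null 3, and 0.136 and 0.325 CPM in WT lines.

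Hoxc13, which controls hair and nail keratin genes, went another way. It was at 1.10, 1.28 and 0.252 CPM in mutant 1, 2 and 3, 0.609 and 0.0380 CPM in null 1 and null 3, and 3.95 and 4.22 CPM in WT 1 and WT 2. All 5 mutant and null lines lay below both WT lines. Near the cluster, Cbx5 was at 173 CPM in null 3 and 148 to 263 CPM in the other lines, and Smug1 at 38.0 CPM in null 3 and 32.4 to 50.7 CPM elsewhere.

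**Figure D3:**
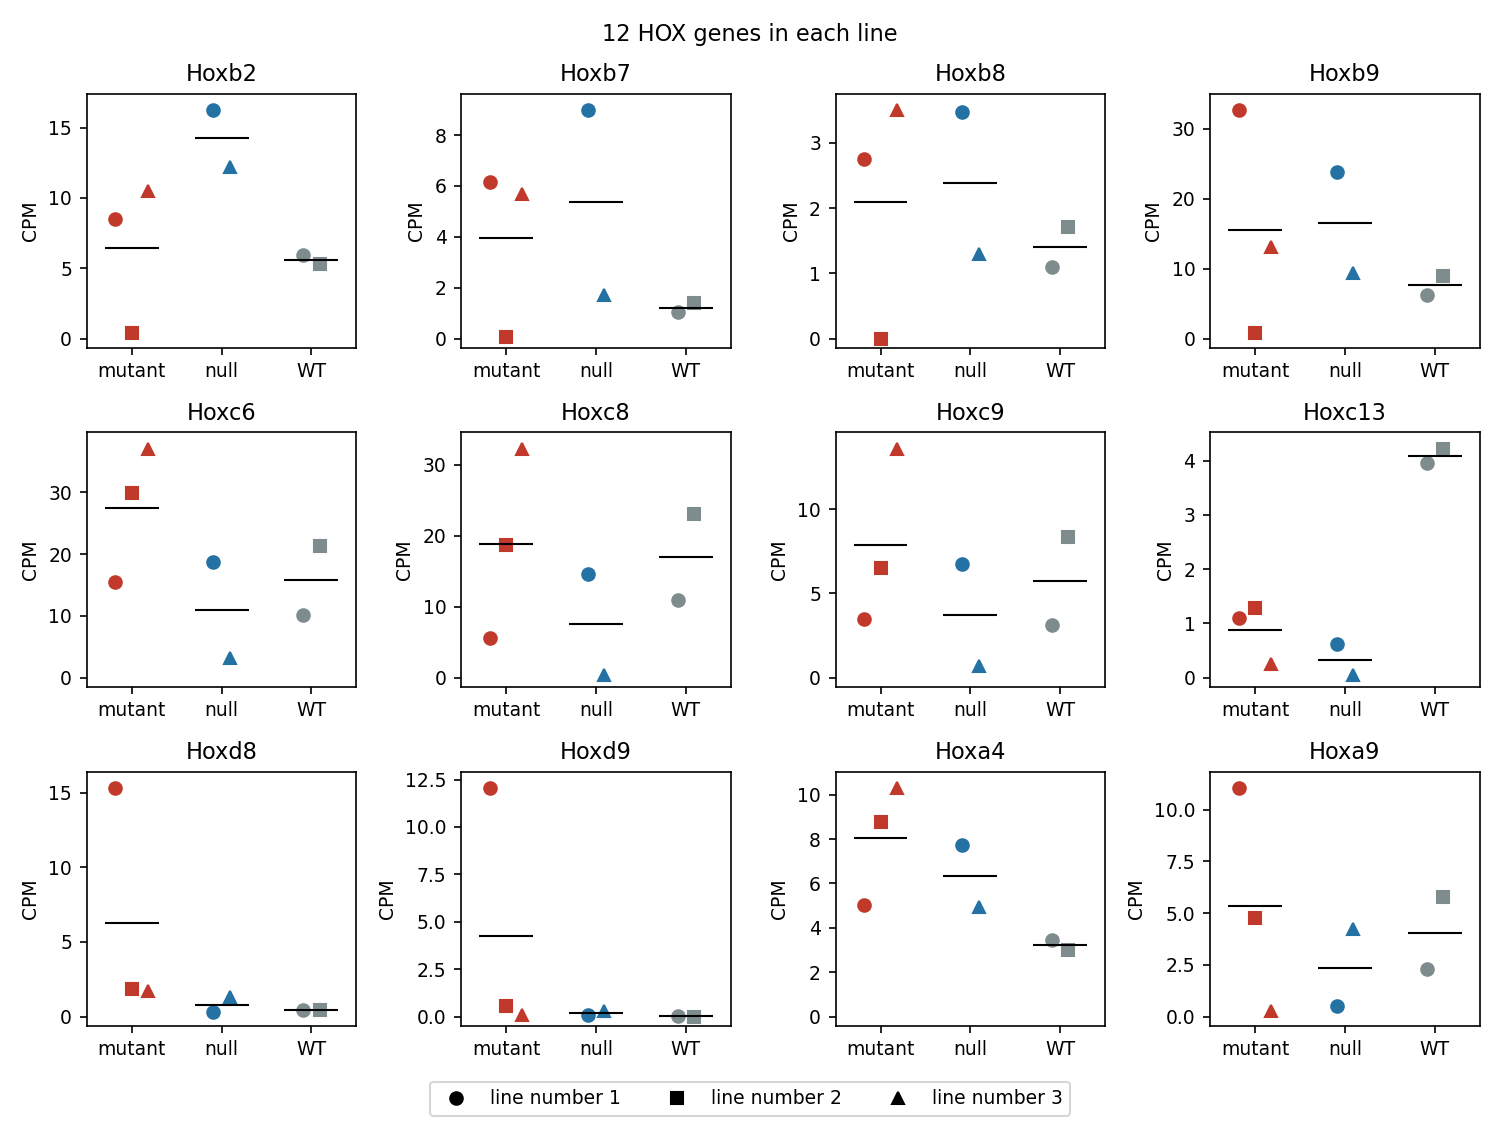
CPM of 12 HOX genes in each line (points, shape giving the line's number) by group, mutant left, then null and WT, with group means as bars. Mutant 2 (square) lies at the bottom for the cluster B genes, null 3 (triangle) for Hoxc6, Hoxc8 and Hoxc9, mutant 1 (circle) at the top for Hoxd8 and Hoxd9, and WT lines lie above the others for Hoxc13 and below them for Hoxa4.

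Within cluster A the differences were smaller and followed single genes. Hoxa4 was at 5.04, 8.76 and 10.3 CPM in mutant lines, 7.73 and 4.94 CPM in null lines, and 3.44 and 3.00 CPM in WT lines. Both WT lines lay below every mutant and null line for this gene. Hoxa2 was at 5.67, 5.48 and 8.33 CPM in mutant lines, 3.10 and 6.99 CPM in null lines, and 3.47 and 2.60 CPM in WT lines.

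Hoxa3, known for the thymus and parathyroid, was at 12.1, 13.5 and 10.3 CPM in mutant lines, 12.6 and 13.1 CPM in null lines, and 10.9 and 8.44 CPM in WT lines. Hoxa5, a gene of the lung and foregut mesenchyme, was at 5.82, 8.16 and 6.97 CPM in mutant lines, 5.39 and 8.31 CPM in null lines, and 6.74 and 4.87 CPM in WT lines. Both varied little, and no line stood apart. Hoxa6 was at 0.590, 1.23 and 0.459 CPM in mutant 1, 2 and 3, 0.639 and 0.456 CPM in null lines, and 0.578 and 0.487 CPM in WT lines. Hoxa7, studied as a regulator of differentiation in human keratinocytes, was at 10.1, 13.8 and 4.86 CPM in mutant lines, 8.09 and 5.28 CPM in null lines, and 4.56 and 7.55 CPM in WT lines.

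The 5′ genes of cluster A differed more. Hoxa9 was at 11.1, 4.77 and 0.252 CPM in mutant 1, 2 and 3, 0.487 and 4.21 CPM in null 1 and null 3, and 2.31 and 5.76 CPM in WT lines. Hoxa10 was at 0.753, 2.23 and 0.206 CPM in mutant lines, 0.304 and 1.33 CPM in null lines, and 0.0340 and 0.325 CPM in WT lines. Mutant 3 and null 1 shared a low Hoxa9 level, and these were also the lines with most Hoxc10. Hoxa11 had counts in mutant 1 (0.102 CPM) and null 3 (0.342 CPM) alone, and Hoxa13 had 1 count each in mutant 1, mutant 2 and null 3. In the GENCODE annotation of GRCm38, genes on the opposite strand overlap exons of Hoxa3, Hoxa4, Hoxa7, Hoxa11, Hoxb2, Hoxb3 and Hoxd3. Predicted genes on the same strand overlap Hoxa2, Hoxa3, Hoxd3, Hoxd4, Hoxd10 and Hoxd11. Whether reads were counted by strand is not given in the sources used here. Counts of these genes are uncertain to that extent.

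Noncoding transcripts of the clusters were few. Of 18 listed, 13 names were in the table and 2 passed the expression filter. Mira, a noncoding transcript of cluster A, was at 9.82, 13.1 and 4.34 CPM in mutant lines, 8.22 and 6.53 CPM in null lines, and 4.90 and 6.01 CPM in WT lines. Gm15055, also known as Halr1, was at 0.671, 0.0237 and 0.321 CPM in mutant lines, 0 and 0.0759 CPM in null lines, and 0.544 and 1.14 CPM in WT lines. Neither was called in any comparison (smallest edgeR adjusted p = 0.244, in null against WT). The long noncoding RNAs Hotair and Hottip had no count in any library.

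Mutant lines were set against WT lines to see which HOX genes differ with p53R172H and the 4NQO label. None of the 27 HOX genes tested was called by the edgeR quasi-likelihood test at an adjusted p under 0.05, over a background of 3.3% of 13768 genes called higher and 4.13% called lower. At an unadjusted p under 0.05, 3 were higher (Hoxd8, Hoxa4 and Hoxd9) and 1 was lower, where the background was 15.9% and 14.6%. DESeq2, the other count test, called those same 4 genes, over a background of 12.4% of all genes called higher and 10.8% lower, and limma-voom called none. Neither share of HOX genes called by DESeq2 was above its background. Hoxd8 averaged 6.29 ± 7.85 CPM in mutant lines and 0.407 ± 0.00160 CPM in WT lines (SD, n = 3 and 2), or 3.94 as a log2 fold change (SE 1.37, edgeR adjusted p = 0.114), which was 2.09 without mutant 1. Hoxa4 averaged 8.04 ± 2.71 CPM in mutant lines and 3.22 ± 0.305 CPM in WT lines, or 1.32 as a log2 fold change (SE 0.464, edgeR adjusted p = 0.116). Hoxd9 had 621 counts over the mutant libraries and 1 over the WT libraries, a ratio of 192 with an exact 95% counting interval of 34.3 to 7597, and 594 of the 621 came from mutant 1.

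The libraries of the 2 groups did not overlap for 5 HOX genes higher in mutant (Hoxa2, Hoxa4, Hoxc4, Hoxd8 and Hoxd9; background 26.9%) and 2 lower, Hoxc13 among them (background 25.7%). Both counts were below the background share. With a count of 0 read as 3 counts, Hoxd9 overlapped and 4 were left (background 25.4%). The median log2 fold change was 0.67 over the 27 HOX genes and 0.08 over all genes tested, and 23 of 27 were above 0, as were 7496 of 13768. Over the same 27 genes the median was 1.08 without WT 2, 0.58 without WT 1 and 0.55 without mutant 3. By cluster the median was 0.50 over 9 genes of A, 0.59 over 9 of B and 0.81 over 7 of C, and the 2 genes of D are Hoxd8 and Hoxd9, given above.

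In the comparison of null with WT lines no HOX gene was called by edgeR, where 0.0726% of all genes were called higher and 0.0654% lower. At an unadjusted p under 0.05 none was higher (background 11.2%) and 1 was lower (background 9.01%). That gene, Hoxc13, averaged 0.323 ± 0.404 CPM in null lines and 4.08 ± 0.195 CPM in WT lines (SD, n = 2 each), or -3.63 as a log2 fold change (SE 1.31, edgeR adjusted p = 0.207). DESeq2 called it lower, over a background of 4.7%, and limma-voom did not. It was -2.74 without null 3 and -6.62 without null 1, a fitted value that rests on 1 count in null 3. Hoxa4 differed by 0.97 (SE 0.491, edgeR adjusted p = 0.308), in the direction seen in mutant lines, a comparison that shares the WT libraries.

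The null and WT libraries did not overlap for 8 HOX genes higher in null (background 29.1%) and 2 lower (background 27.1%). The 8 were Hoxa3, Hoxa4, Hoxb2, Hoxb3, Hoxb4, Hoxb7, Hoxb9 and Hoxd9, of which 5 belong to cluster B, and Hoxc13 was among the 2. With a count of 0 read as 3 counts, Hoxd9 overlapped and 7 were left (background 27.3%). The count of higher genes was close to the background share and that of lower genes below it. The median log2 fold change was 0.73 over the 27 HOX genes and 0.06 over all genes. It was 1.13 over cluster B, with 8 of 9 genes above 0, and -0.52 over cluster C, with 2 of 7 above 0. Without null 1 the median over the same 27 genes was 0.07.

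Mutant and null lines differ in the p53 allele and share the 4NQO label. No HOX gene and no other gene was called by edgeR between them, so the background was 0% in both directions. No HOX gene had an unadjusted p under 0.05 (background 6.35% higher and 7.63% lower), and neither DESeq2 nor limma-voom called one. Hoxd8 differed by 2.98 (SE 1.28, edgeR adjusted p = 0.366), Hoxd9 by 4.42 (SE 2.17, edgeR adjusted p = 0.403) and Hoxc6 by 1.33 (SE 0.784, edgeR adjusted p = 0.471). Without mutant 1 the first 2 values were 1.13 and 0.67, and without null 3 that of Hoxc6 was 0.56, so each rested largely on 1 line. The libraries did not overlap for Hoxd8, higher in mutant (background 16%), and for Hoxb2, Hoxb3 and Hoxb4, lower in mutant (background 15.1%), both below the background share. Hoxb2 averaged 6.45 ± 5.35 CPM over the mutant lines (SD, n = 3) and 14.3 ± 2.87 CPM over the null lines (SD, n = 2), a log2 fold change of -1.14 with an SE of 1.05. The median log2 fold change was 0.34 over the HOX genes and 0.02 over all genes. Over the same genes it was 0.87 without null 1, 0.23 without null 3 and 0.14 without mutant 3. By cluster it was 1.20 over C and -0.20 over B.

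**Figure D4:**
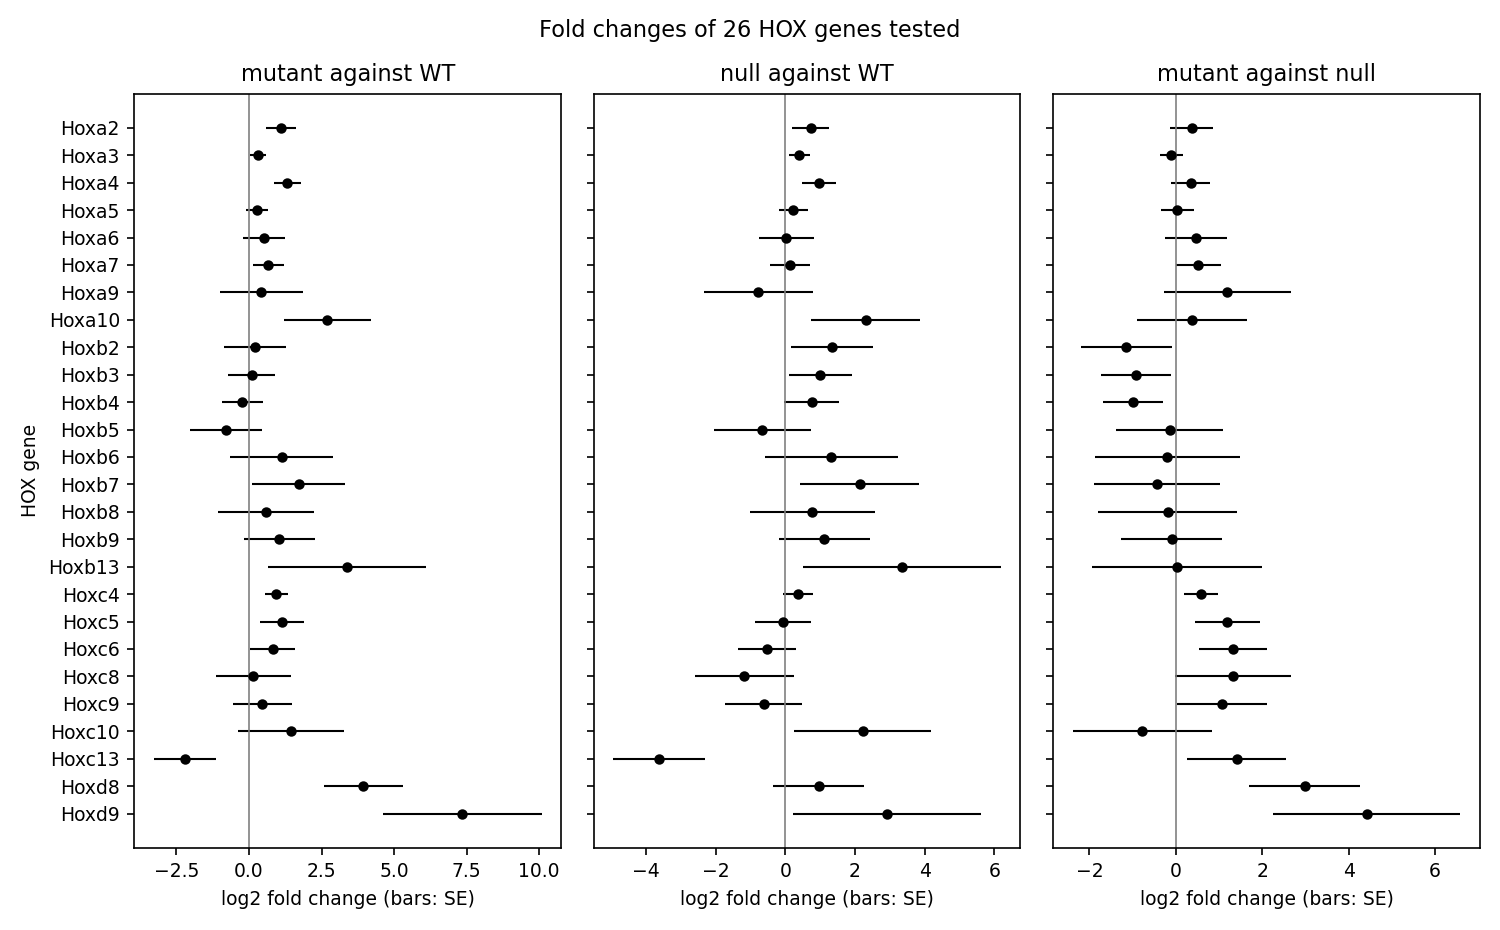
Log2 fold change (points) with its standard error (bars) of 26 of the 27 HOX genes tested, from the edgeR fit, for mutant against WT, null against WT and mutant against null. Hoxd8 and Hoxd9 lie far right with long bars in the panels with mutant lines, and the fitted values of Hoxd9 and Hoxb13 against WT rest on 1 WT count each.

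The spread between lines of 1 group was wide for HOX genes. The median range of log2(CPM + 0.5) within a group was 1.74 for HOX genes and 0.53 for all genes in mutant lines, 1.04 and 0.35 in null lines, and 0.36 and 0.25 in WT lines. In mutant lines it was 0.85 for cluster A, 2.88 for B, 1.66 for C and 3.66 for D. In null lines cluster C had the widest range, 2.24, and cluster A the narrowest, 0.58. The ranges cover 3 mutant, 2 null and 2 WT lines, and a range widens with the number of lines. All genes were not matched to the HOX genes by level.

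By a small margin that was not tested, the 2 lines with the most similar HOX profiles were of different genotype. Over the 39 HOX genes, the highest Pearson r of log2(CPM + 0.5) among the 21 pairs of lines was 0.966, between mutant 3 and null 1, while over all 13768 genes that pair had 0.910. WT 1 and WT 2 followed with 0.958 over HOX genes and 0.984 over all genes. Mutant lines had 0.695, 0.774 and 0.775 with each other, and null 1 and null 3 had 0.821. Mutant 1 and null 3, with 0.967 over all genes, had 0.818 over HOX genes. These values describe libraries that share genes which are silent everywhere, and over the 27 tested genes the pair of mutant 3 and null 1 had 0.933 and the WT pair 0.921.

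**Figure D5:**
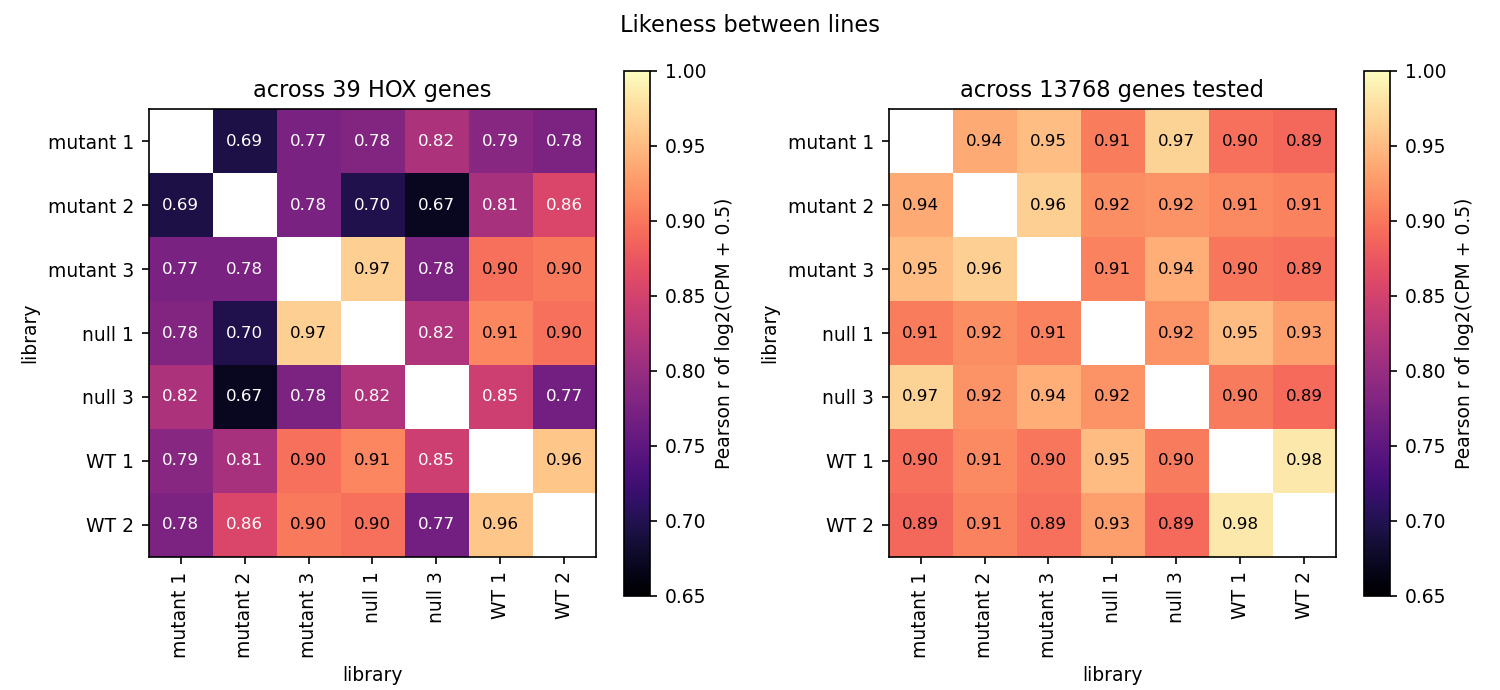
Pearson r of log2(CPM + 0.5) between each pair of libraries across the 39 HOX genes (left) and across the 13768 genes tested (right), on 1 colour scale. Across HOX genes mutant 3 and null 1 are the most alike and mutant 2 and null 3 the least (0.67), whereas across all genes every pair is at 0.89 or above.

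Among proteins that act with HOX factors, none of the 9 PBC and MEIS genes was called in any comparison. Pbx3, a PBC cofactor, averaged 19.0 ± 5.11 CPM in mutant lines and 7.53 ± 1.41 CPM in WT lines (log2 fold change 1.34, SE 0.353, edgeR adjusted p = 0.0648). Meis3 differed by -2.32 (SE 0.947, edgeR adjusted p = 0.155). Meis2, whose libraries did not overlap between mutant and null lines, averaged 31.6 ± 0.799 CPM in mutant lines and 14.7 ± 3.96 CPM in null lines (edgeR adjusted p = 0.258).

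Of 11 genes of Polycomb repressive complex 2, which methylates histone H3 at silent HOX clusters, 1 rose and none fell in mutant against WT. Over all genes tested, 3.3% were called higher and 4.13% lower, so 1 call is not read as a property of a list. Rbbp4, a histone-binding subunit shared with other chromatin complexes, was at 357, 354 and 361 CPM in mutant lines and 129 and 99.1 CPM in WT lines (log2 fold change 1.65, SE 0.170, edgeR adjusted p = 0.0162). Of 16 genes of Polycomb repressive complex 1, 1 rose, Phc3, at 99.2 ± 7.28 CPM in mutant lines and 49.9 ± 4.33 CPM in WT lines (0.99, SE 0.192, edgeR adjusted p = 0.0365). None of 11 MLL complex and H3K27 demethylase genes was called. Kmt2a, the MLL1 methyltransferase, averaged 119 ± 11.9 CPM in mutant lines and 77.1 ± 12.9 CPM in WT lines (0.63, SE 0.185, edgeR adjusted p = 0.0827). The median log2 fold change was 0.39, 0.14 and 0.23 over these lists, against 0.08 over all genes. No gene of these lists was called in the other comparisons.

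Of 11 retinoid and CDX genes tested, 1 rose in mutant against WT lines (background 3.3%). Crabp2, which carries retinoic acid to its receptor, averaged 41.2 ± 10.1 CPM in mutant lines and 4.89 ± 2.73 CPM in WT lines (log2 fold change 3.09, SE 0.641, edgeR adjusted p = 0.0415). Aldh1a3, an enzyme that makes retinoic acid, averaged 0.126 ± 0.133 CPM in mutant lines and 5.0 ± 0.964 CPM in WT lines and did not pass (-5.25, SE 1.25, edgeR adjusted p = 0.0536). Cyp26a1, a retinoic acid responsive enzyme that degrades it, had no count in any library. Cyp26b1, another gene of this list, was at 6.06, 41.6 and 2.68 CPM in mutant 1, 2 and 3. It was at 5.72 and 3.08 CPM in null lines and 5.17 and 3.33 CPM in WT lines. Cyp26b1 was not called in mutant against WT (edgeR adjusted p = 0.287).

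Of 11 genes tested that flank the clusters, 1 fell (background 4.13%) and none rose (background 3.3%) in mutant against WT lines. Skap2, beside the 3′ end of cluster A, averaged 51.9 ± 4.58 CPM in mutant lines and 114 ± 7.36 CPM in WT lines (log2 fold change -1.14, SE 0.141, edgeR adjusted p = 0.0212). It stood at 68.7 and 69.5 CPM in null lines, where it was not called against WT (edgeR adjusted p = 0.111). The median over the flanking genes was -0.07.

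Homeobox genes outside the clusters included called genes. Of 21 tested, 3 rose (background 3.3%) and none fell (background 4.13%) in mutant against WT. The median log2 fold change was 2.14, against 0.67 over the HOX genes. Irx1, an Iroquois patterning gene, was at 98.3, 316 and 191 CPM in mutant lines, 45.6 and 51.3 CPM in null lines and 8.78 and 15.3 CPM in WT lines (4.08 for mutant against WT, SE 0.573, edgeR adjusted p = 0.0227). Irx2, its neighbour, averaged 81.3 ± 36.3 CPM in mutant lines and 18.7 ± 0.00154 CPM in WT lines (2.12, SE 0.445, edgeR adjusted p = 0.0425). Hhex, a foregut gene, averaged 3.51 ± 1.71 CPM in mutant lines and 0.194 ± 0.159 CPM in WT lines (4.06, SE 0.893, edgeR adjusted p = 0.0458). For all 3 genes every mutant line lay above every null and WT line, except Irx2, where null 3 (51.4 CPM) exceeded mutant 1 (43.0 CPM).

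Cell type markers were tested as well. Of 13 epithelial markers 4 fell in mutant against WT (Krt5, Epcam, Esrp2 and Grhl2), where the background was 4.13%. Of 17 fibroblast markers tested 1 rose (background 3.3%), Twist1 (log2 fold change 1.54, SE 0.324, edgeR adjusted p = 0.0429). The median log2 fold change was -1.01 over the epithelial markers, with 1 of 13 above 0. Over the fibroblast markers it was 6.50, with all 17 above 0, against 0.08 over all genes tested. For 8 of the 17 fibroblast markers the mutant libraries lay above the WT libraries without overlap (background 26.9%). Of these markers, Col6a3, Pdgfrb and Dpt had no WT count, so their fitted values have no firm size. In null against WT the fibroblast median was 4.53, with 15 of 17 above 0 and 5 higher without overlap (background 29.1%). Between mutant and null lines it was 0.30, with 10 of 17 above 0. These medians do not describe every line. Col3a1 was at 148, 0.214 and 183 CPM in mutant 1, 2 and 3, and 0.0913 and 276 CPM in null 1 and null 3. WT 1 and WT 2 had 0 and 1.62 CPM of Col3a1. Col5a1 was at 134, 85.5 and 66.0 CPM in mutant lines, 3.07 and 161 CPM in null lines, and 0.442 and 0.893 CPM in WT lines. No muscle, endothelial, immune or neural marker was called. Krt5, a basal keratin, averaged 3041 ± 1043 CPM in mutant lines, 3041 ± 1424 CPM in null lines and 17611 ± 5353 CPM in WT lines, and the null lines, as low as the mutant lines, did not pass against WT (edgeR adjusted p = 0.0995). The part of these markers in any HOX level was not tested.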

How the data were processed

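The members and lists were chosen with earlier results of these data known. The authors deposited 1 table of raw counts per gene, and per the submitters' processing notes it was made with STAR 2.5.1b on build mm9. For the counting, neither the annotation nor the strand setting is given in the sources used here. Per the labels' protocols, libraries were made with a stranded poly(A) kit. The table has 24047 names, of which 92 spike-ins with a total of 0 counts were left out and 27 date-like names were kept in the fit but not named. No library was a copy of another, as counts within a group differed by a chi-square of 56.4 to 243.1 for each degree of freedom.

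Counts were fitted in R 4.3.3 with edgeR 4.0.16 (quasi-likelihood F test, TMM factors, default expression filter by group, all 7 libraries in one fit with 4 residual degrees of freedom, Benjamini-Hochberg adjustment over 13768 genes, threshold 0.05). The common biological coefficient of variation was 0.485. A standard error is the log2 fold change divided by the root of F. CPM values are counts divided by TMM-scaled library sizes. The fit was tested on simulated data. A count of 0 was read as at most 3 counts. Ratios resting on 1 to 3 counts and shares have exact 95% intervals. Values in every library are given for members at 1 CPM or more in at least 1 library. Fold changes are given for the 3 members with the smallest p in each comparison and, outside the clusters, for called list genes or else those with the smallest p. Hoxb2 in mutant against null, Prrx1, Meis2 and the flanking genes set beside single lines were named after their values were seen. So were Fn1, Fbln2, Cyp26b1, Col3a1, Col5a1 and the single muscle markers. Some genes counted in totals, medians and tests, among them members that these rules would name, are not reported here.

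Transcript lengths, 3′UTRs and exon overlaps came from GENCODE vM21 on GRCm38 (the longest coding transcript), and promoters and microRNAs from RefSeq GRCm38.p6, matched by symbol. These builds differ from that of the counts, so no coordinates of counted features are given. The labels do not say that line numbers in the titles pair lines, so the main fit did not use them as pairs (see the closing section). Alternatives were RLE, upper-quartile and no factors, DESeq2 1.42.0, limma-voom (limma 3.58.1), a robust fit, no expression filter or one of 5 CPM in at least 2 libraries, fits restricted to the groups compared, the line number as a replicate block, and each library left out. The newer quasi-likelihood form, the reading of a count of 0 as 3 counts in the counts of libraries apart, and medians over the same HOX genes were added after the data were seen.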

Additional observations from a re-analysis of the deposited data

How the results depend on the processing

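DESeq2 gave the sole HOX calls of any alternative. It called 3 HOX genes higher in mutant against WT (Hoxd8 at a log2 fold change of 3.95, adjusted p = 0.00833, Hoxd9 at 7.46, adjusted p = 0.0057, and Hoxa4 at 1.29, adjusted p = 0.0471) and 1 lower. It called 1 lower in null against WT (Hoxc13 at -3.65, adjusted p = 0.0496). DESeq2 called 12.4% of all genes higher and 10.8% lower in mutant against WT, and 4.7% lower in null against WT, so no HOX share was above its background. RLE, upper-quartile and no factors, both filters, the robust fit, the fits of only the groups compared, limma-voom, the newer quasi-likelihood form, the replicate block and each fit without 1 library gave 0 HOX calls in each direction and comparison. Leaving out each library in turn gave counts from 0 to 0. The median HOX log2 fold change with other factors was 0.64 to 0.78 in mutant against WT, 0.73 to 0.83 in null against WT and 0.30 to 0.38 in mutant against null. In the same order of comparisons it was 0.25, 0.52 and 0.20 with limma-voom, 0.38, 0.17 and 0.07 with the replicate block, and 0.43, 0.36 and 0.32 over the 17 HOX genes that passed 5 CPM in 2 libraries. With no filter it was 1.06, 0.57 and 0.37 over 34 HOX genes, and with only the groups compared 0.63, 0.36 and 0.33 over 26, 23 and 27. Without 1 library, over whichever of the same 27 genes were tested, it ran from 0.55 to 1.08, 0.07 to 0.61 and 0.14 to 0.87. Using no factors moved the median of all genes by 0.11 in mutant against WT.

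Deviations of same-numbered lines from their group means correlated at -0.02 and -0.01 between mutant and WT and 0.15 between null 1 and WT 1. Between mutant and null lines the values were -0.36 and -0.01. In a group of 2 lines such deviations mirror each other, so these correlations cannot show whether lines are paired. The labels do not say that the numbers mark pairs, and they are not taken as pairs. With the replicate block 0 HOX genes were called, and 0 of all genes, in every comparison. The number of all genes called, higher and lower, depended more on the settings than the HOX count. In mutant against WT it was 454 and 568, and 709 and 489 with no factors, 1714 and 1483 with DESeq2, 200 and 543 with limma-voom and 732 and 789 with only the 2 groups. It was 0 without either WT line, 626 and 794 without mutant 1, 21 and 16 without mutant 2, 3 and 3 without mutant 3, and 541 and 794 with the newer form. In null against WT it was 10 and 9, and 901 and 647 with DESeq2, 0 with limma-voom, 45 and 32 with no filter, 20 and 35 with the newer form, 47 and 8 without null 1 and 0 without null 3 or either WT line. In mutant against null it was 0 and 0, 213 and 391 with DESeq2, 8 and 14 without null 3, and at most 1 in each direction elsewhere. The causes were not tested.

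With 2 or 3 lines a group and a wide spread between lines, a HOX gene without a call cannot be read as unchanged. WT 2, with 12751118 counts, sets the lowest depth, where 1 count is worth 0.0812 CPM. Where a fit leaves a group with 1 line, that line is assumed to vary like the others.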
